A study of Mus musculus with 2 samples.

Results

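Effector-like T cells of mouse brown adipose tissue (BAT) were defined here as cells with T cell receptor signalling transcripts and without transcripts of 3 genes of naive T cells. A barcode was a member when it held at least 2 UMIs of Cd3d, Cd3e and Cd3g together, no UMI of Cd4, of Ccr7, Lef1 or Dapl1, of Cd79a or of Csf1r, and at most 1 UMI of Ncr1 and Klrb1c together. A UMI (unique molecular identifier) stands for 1 captured RNA molecule. Barcodes entered when 200 or more genes were detected and mitochondrial genes took no more than 10% of the UMIs. The rule found 136 members among 4295 kept cells, 57 of 2279 in the control library and 79 of 2016 in the AdipoΔ/Δ library.

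The study examined how leukocytes of BAT differ when adipocytes cannot make ATGL, the lipase encoded by Pnpla2. CD45+ cells, which are leukocytes, were sorted from digested BAT and sequenced as 1 droplet library per condition. Both groups were male C57Bl/6 mice of the genotype AdipoQ-CreERT2 ATGLfl/fl, 16 weeks old by the labels, although the text of the study gives a younger age. Control mice received vehicle, and AdipoΔ/Δ mice received tamoxifen at 10 mg/ml, 200 uL per injection into the peritoneum, on alternate days for 1 week. Both were then rested for 2 weeks. The Adipoq promoter drives the recombinase in adipocytes, so these T cells themselves were not the target of the deletion. Because the drug was given only to AdipoΔ/Δ mice, tamoxifen and loss of ATGL cannot be told apart. How many mice were pooled for a library is not given in the sources used here. Each condition has a single library, so differences between conditions could not be tested, and every interval below is a 95% interval that covers counting error only.

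T cells recognise antigen through a receptor that signals through the CD3 chains, and the CD8 coreceptor marks the cytotoxic lineage. Naive T cells carry CCR7, which brings them into lymph nodes, and keep transcription factors such as LEF1 and TCF-1. After activation, effector cells and part of the memory cells lose these genes and acquire granzymes, chemokines and tissue homing receptors such as CXCR6. Resident T cells of this kind, and gamma delta T cells, live in adipose tissue.

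The total depth was 11327187 UMIs over 2597 control barcodes and 12028844 over 2381 AdipoΔ/Δ barcodes. Members were shallow, with a median of 1978 UMIs in the control library (range 511 to 9805) and 2571 in the AdipoΔ/Δ library (569 to 22118). Gm42418, a gene model that overlaps ribosomal RNA, took 10.9% of the members' UMIs in the control library and 5.40% in the AdipoΔ/Δ library. The libraries shared 4 barcodes, none of them a member. A doublet caller marked 8 and 6 barcodes, too few to have worked, and doublets were not removed. Pnpla2, the targeted gene, gave 3 UMIs in the control members and 14 in the AdipoΔ/Δ members, a ratio of 2.17 (0.605 to 11.8). Since the deletion is in adipocytes, these counts do not check the labels.

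The markers of the label were present but not in every cell. Cd3g was detected in 78.9% of control members and 86.1% of AdipoΔ/Δ members, as the rule favours. Thy1, a surface protein of T cells that the rule did not use, was detected in 47.4% (34.0 to 61.0) and 65.8% (54.3 to 76.1), and in 25.6% and 40.9% with each cell thinned to 1000 UMIs. Trac, the constant region of the alpha receptor chain, was detected in 52.6% and 75.9%, against 0.389% and 2.33% of B cells. On the other hand, 75.4% of control members and 53.2% of AdipoΔ/Δ members held no UMI of Cd8a, Trdc or Cxcr6. Tcf7, the gene of TCF-1, was detected in 56.1% of control members (42.4 to 69.3) and in 32.9% of AdipoΔ/Δ members (22.7 to 44.4), against 76.6% and 75% of naive-gene T cells. Thinned, its shares in members were 31.1% and 13.4%. The term effector-like therefore stands here for the rule, and many members, more of them in the control library, held no UMI of the marker genes at their depth.

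Members made up 2.50% of kept control cells (1.90 to 3.23) and 3.92% of kept AdipoΔ/Δ cells (3.11 to 4.86), a ratio of 1.57 (1.10 to 2.24). Of CD3-positive cells they were 15.7% and 29.3%, a ratio of 1.86 (1.31 to 2.67). Naive-gene T cells, which pass the same rule except for at least 1 UMI of Ccr7, Lef1 or Dapl1, numbered 201 in the control and 100 in the AdipoΔ/Δ library. Among both kinds together, 22.1% of control cells and 44.1% of AdipoΔ/Δ cells were members. A share of this kind depends on all cells of the library, so more members and fewer other cells cannot be told apart.

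The absence of 3 genes is easier to meet in a shallow cell, and naive-gene cells were deeper, with medians of 4611 and 6949 UMIs. The share of members was therefore read within ranges of depth. Among cells under 2000 UMIs it was 46.9% in the control library (30 of 64) and 71.4% in the AdipoΔ/Δ library (25 of 35). Among cells of at least 8000 UMIs it was 6.67% (3 of 45) and 20.4% (11 of 54). Over all cells with at least 4000 UMIs, 9.30% (4.90 to 15.7) of control cells and 25.8% (17.3 to 35.9) of AdipoΔ/Δ cells were members. The share was lower in deeper cells in both libraries and was higher in the AdipoΔ/Δ library in each of the 4 ranges of depth.

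**Figure D1:**
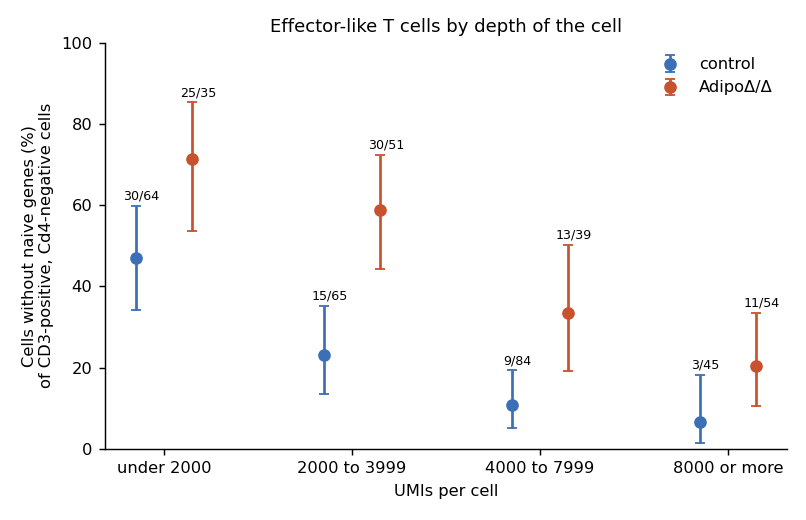
Share of cells without Ccr7, Lef1 and Dapl1 among CD3-positive, Cd4-negative cells (y axis, percent) in 4 ranges of UMIs per cell (x axis); points are shares, bars are exact 95% binomial intervals and the labels give members over cells. The AdipoΔ/Δ points lie above the control points in each range, from 71.4% against 46.9% in the shallowest cells to 20.4% against 6.67% in the deepest.

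Cd8a, which encodes the alpha chain of CD8 (chromosome 6, 71373427 to 71379173 in mm10), was detected in 9 of 57 control members, 15.8% (7.48 to 27.9), and in 24 of 79 AdipoΔ/Δ members, 30.4% (20.5 to 41.8). With each cell thinned to 1000 UMIs, the expected shares were 8.44% of 48 cells and 21.0% of 70 cells. B cells, which should lack the gene, held a UMI of Cd8a in 0 of 257 control cells, which allows a share of up to 1.43%, and in 1.16% of 86 AdipoΔ/Δ cells, at median depths of 1884 and 2491 UMIs. Levels are given as CPM, the UMIs of a gene summed over a group of cells and scaled to a common total. Over all members the level of Cd8a was 159 CPM (103 to 235) for control and 467 CPM (397 to 546) for AdipoΔ/Δ. Among members with at least 4000 UMIs, detection was 58.3% of 12 control cells (27.7 to 84.8) and 62.5% of 24 AdipoΔ/Δ cells (40.6 to 81.2), and these intervals overlap widely. Cd8b1, the beta chain, was detected in 22.8% of control and 32.9% of AdipoΔ/Δ members.

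Trdc, the constant region of the delta receptor chain (chromosome 14, 54142851 to 54148868), was detected in 2 members of each library. These were 3.51% (0.428 to 12.1) of control members and 2.53% (0.308 to 8.85) of AdipoΔ/Δ members. The 2 control cells held 17 UMIs of Trdc and the 2 AdipoΔ/Δ cells 25, with 14 in the richest cell of each library. Trac was not detected in any of the 4, and none held Cd8a. Trdc was found in 0 of 257 control B cells and 1.16% of AdipoΔ/Δ B cells. In naive-gene T cells it was found in 2.49% and 2.00%. A difference in this share between the libraries was not detectable with 4 cells.

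Cxcr6, a chemokine receptor of tissue-resident lymphocytes (chromosome 9, 123806475 to 123811760), was detected in 8 of 57 control members, 14.0% (6.26 to 25.8), and in 26 of 79 AdipoΔ/Δ members, 32.9% (22.7 to 44.4). It gave 10 UMIs in the control and 76 UMIs in the AdipoΔ/Δ members, with at most 2 and 10 in 1 cell. The level was 63.6 CPM and 225 CPM, a ratio of 3.53 (1.82 to 7.66). No B cell of either library held a UMI, which allows up to 1.43% and 4.20%. Thinned to 1000 UMIs, the expected shares were 5.18% and 13.5%, and among members with at least 4000 UMIs the shares were 41.7% (15.2 to 72.3) and 70.8% (48.9 to 87.4). The share was higher in the AdipoΔ/Δ library in each of these readings, and the intervals of the deep cells overlap. It was also higher in that library among naive-gene T cells. Of those with exactly 1 UMI of Ccr7, Lef1 or Dapl1, 2 of 36 control and 7 of 17 AdipoΔ/Δ cells held Cxcr6. Of those with 2 or more such UMIs, 12 of 165 and 14 of 83 held it.

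**Figure D2:**
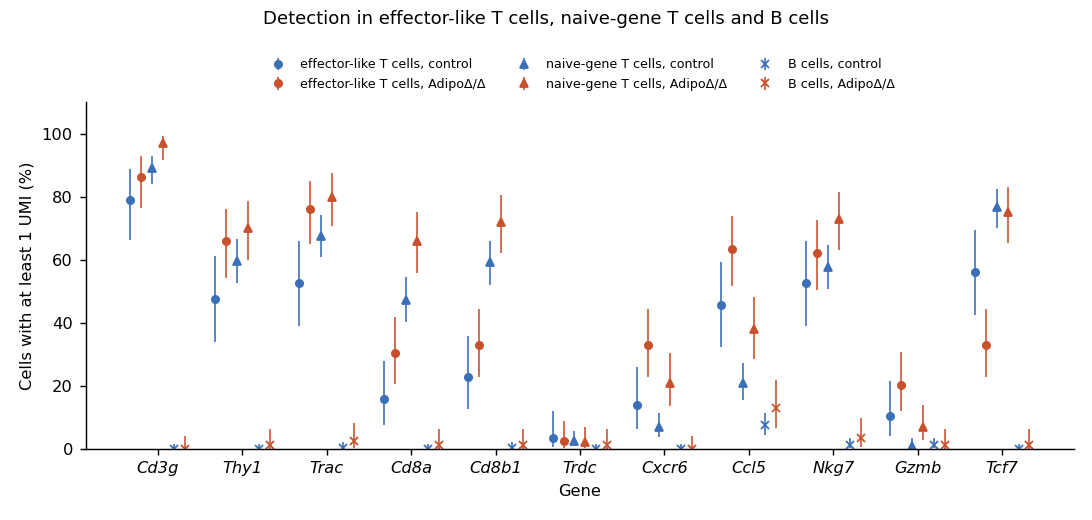
Share of cells with at least 1 UMI (y axis, percent) for 11 genes (x axis) in effector-like T cells (circles), naive-gene T cells (triangles) and B cells (crosses) of both libraries, with exact 95% binomial intervals. Cxcr6 was detected in 14.0% of control and 32.9% of AdipoΔ/Δ members and in no B cell, while Tcf7 ran the other way with 56.1% and 32.9%.

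The members divided by receptor into Trdc-positive cells, CD8-positive cells with a UMI of Cd8a or Cd8b1, and the remainder. CD8-positive members numbered 14 of 57 in the control library, 24.6% (14.1 to 37.8), and 26 of 79 in the AdipoΔ/Δ library, 32.9% (22.7 to 44.4). The remainder were 41 control and 51 AdipoΔ/Δ members, with median depths of 1755 and 2147 UMIs against 4116.5 and 5816 UMIs in CD8-positive members. Cxcr6 was detected in 4 of the 14 and 13 of the 26 CD8-positive members. In the remainder it was detected in 3 of 41 and 11 of 51. Cd8a and Cxcr6 were found in the same cell in 4 control and 13 AdipoΔ/Δ members. The share was higher in the AdipoΔ/Δ library in both groups of cells.

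Ccl5 and Gzmb stood higher in CD8-positive members than in the remainder, in both libraries. Ccl5, a chemokine stored by memory and effector cells, stood at 10087 CPM in CD8-positive control members and 11307 CPM in CD8-positive AdipoΔ/Δ members, against 2382 and 2959 CPM in the remainder. Gzmb, the protease granzyme B, stood at 541 and 869 CPM in CD8-positive members and at 36.3 and 192 CPM in the remainder. Ly6c2, carried by memory CD8 T cells, stood at 1193 and 1914 CPM against 314 and 220 CPM. Xcl1, a chemokine that draws dendritic cells, stood at 191 and 53.3 CPM in CD8-positive members and at 133 and 989 CPM in the remainder. In the AdipoΔ/Δ library it was thus higher in the remainder, but this rested on few cells. Single cells of that remainder held 47, 45 and 31 of the 149 Xcl1 UMIs in AdipoΔ/Δ members. Maf, a transcription factor of helper and gamma delta T cells, ran the other way, with 0 UMIs and 5 UMIs in CD8-positive members and 27 and 40 UMIs in the remainder. Foxp3, the factor of regulatory T cells, was detected in 3 cells of the remainder in each library and in 1 CD8-positive control member. The CD8-positive cells were also the deeper ones, and the part of depth in these contrasts was not tested.

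Cxcr6-positive members held more RNA of Gzmb and less RNA of Klf2 and Tcf7 than Cxcr6-negative members, in both libraries. Gzmb stood at 640 and 850 CPM in Cxcr6-positive members and at 86.9 and 113 CPM in Cxcr6-negative members. In the control library, all Gzmb UMIs of Cxcr6-positive members came from a cell with 18 and a cell with 9 UMIs. Klf2, which keeps T cells in circulation, stood at 166 and 102 CPM in Cxcr6-positive members against 722 and 416 CPM. Members with many neutrophil transcripts, described below, were all Cxcr6-negative. They held 11, 4 and 1 UMIs of Klf2 in the control library and 9, 9 and 4 in the AdipoΔ/Δ library, and are included in these levels. Tcf7 stood at 190 and 63.1 CPM against 400 and 227 CPM. Itga1, an integrin of resident cells, was close in both groups, at 94.8 and 43.7 CPM against 86.9 and 37.8 CPM. These groups were cut from counts of the same cells, so the values are descriptions. Among members with Cd8a, those with Cxcr6 had median depths of 6579.5 and 10579 UMIs, against 4192 and 3486 UMIs without it. The part of depth in these contrasts was not tested either.

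Next to naive-gene T cells of the same library, members showed higher levels of effector and chemokine genes and lower levels of recirculation genes. The comparison was made as a ratio of CPM over 7247 genes with at least 20 UMIs, without the genes of the rule, and a gene counted where it passed 2-fold in both libraries. It counted 450 genes as higher (6.21% of those compared) and 42 as lower (0.58%). The median log2 ratio over all genes was 0.17 in the control and 0.25 in the AdipoΔ/Δ library. Because members were chosen from counts of these cells, no test was made.

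The genes with the largest ratios in both libraries were Il1b, Myadm, Nfam1, Klra1, Fgr, Itga1, Fgl2, Ifng, Chst2 and Cenpf. Il1b, an inflammatory cytokine of myeloid cells, gave 37 UMIs in 4 control members and 151 UMIs in 4 AdipoΔ/Δ members. A few members held many neutrophil transcripts. With at least 20 UMIs of S100a8, S100a9, Retnlg, Csf3r and G0s2, 3 members of each library carried 895 of the 964 and 1432 of the 1467 such UMIs, and no other member held more than 7. Only 1 of these 6 cells held a UMI of Trac. Without them Il1b, Myadm, Nfam1 and Fgr were no longer among the 10 leading genes, which then were Klra1, Fgl2, Itga1, Ifng, Cenpf, Chst2, Tcrg-C1, Xcl1, Dusp6 and Maf.

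Several of these genes are known in resident or effector cells. Itga1, the alpha chain of the collagen receptor VLA-1, stood at 89.1 CPM in control and 41.4 CPM in AdipoΔ/Δ members, 31.4 times (8.77 to 170) and 33.4 times (5.08 to 1411) the level in naive-gene cells. Those naive-gene cells held 3 and 1 UMIs of Itga1. Ifng, the gene of interferon gamma, gave 5 UMIs in 3 control members and 55 UMIs in 15 AdipoΔ/Δ members, with ratios of 11.2 (2.18 to 72.2) and 10.1 (5.44 to 20.1). Xcl1, a chemokine that draws dendritic cells, stood 7.65 times and 16.9 times above naive-gene cells. Fgl2, a fibrinogen-like protein made by T cells, gave 27 UMIs in 14 control members and 45 UMIs in 18 AdipoΔ/Δ members. Klra1, a Ly49 receptor whose reads can be shared with near-identical copies, gave 19 UMIs in 3 and 33 UMIs in 4 members, so it rested on few cells and is uncertain.

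Among listed groups, 5 of 6 cytokine and chemokine genes passed 2-fold in both libraries as higher than in naive-gene cells. These were Ifng, Ccl5, Ccl4, Xcl1 and Tgfb1. In this comparison 6.21% of all genes passed as higher, the share to set beside the lists that follow. Ccl5 (chromosome 11, 83525778 to 83530518) was the 7th gene by level among members when ribosomal protein and mitochondrial genes were left out, and stood 4.77 times (4.39 to 5.19) above naive-gene cells in the control and 2.23 times (2.11 to 2.35) in the AdipoΔ/Δ library. Of 13 listed gamma delta genes only 4 had enough UMIs, and these passed, namely Trdc, Tcrg-C1, Tcrg-C2 and Maf. They rested on few cells. Trdc was held by 2 members of each library, and Tcrg-C1 by 4 control and 5 AdipoΔ/Δ members outside the neutrophil-marked cells. Without the richest member of each gene, 3 of the 4 passed. Of 11 transcription factors of effector and memory cells, 6 passed, namely Tbx21, Id2, Gata3, Rora, Ikzf2 and Batf. Id2, which opposes naive-type programmes, stood at 674 and 1120 CPM, 5.85 and 3.41 times the level of naive-gene cells. Gzmb was not among the genes past 2-fold in both libraries. It stood 125 times (32.1 to 1067) above naive-gene cells in the control library, where those cells held 2 UMIs, and 1.80 times (1.49 to 2.19) in the AdipoΔ/Δ library, where they held 251. Of 10 cytotoxic genes 3 passed, namely Nkg7, Fasl and Srgn, and of 7 residency genes 4, namely Cxcr6, Itga1, Rgs1 and Nr4a1. None of these lists had a gene past 2-fold as lower. Several ratios lay close to 2, and with ribosomal protein and mitochondrial genes left out of the total the numbers were 1 of 10 for cytotoxic genes, 3 of 11 for transcription factors and 3 of 6 for cytokines and chemokines.

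**Figure D3:**
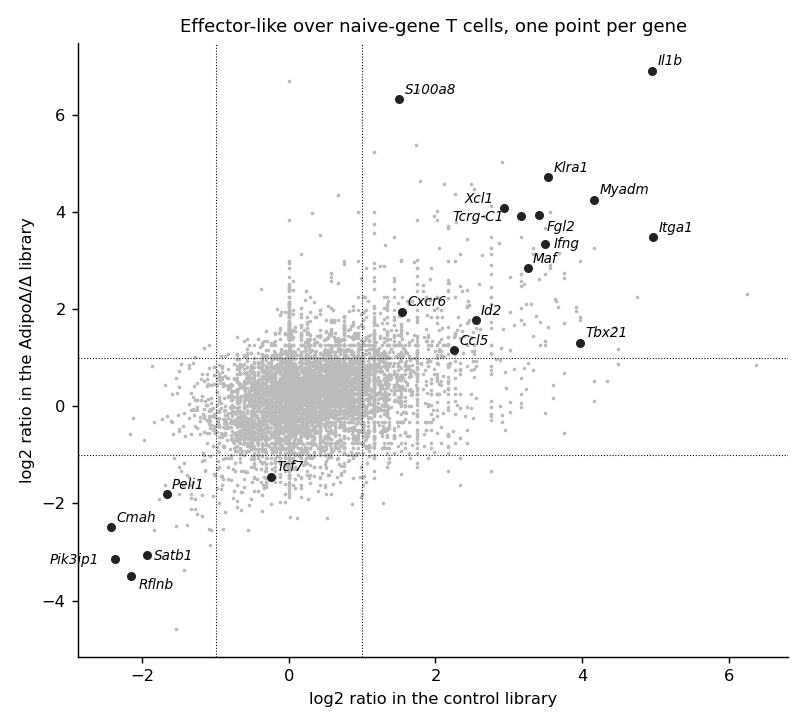
Log2 ratio of CPM in effector-like over naive-gene T cells in the control library (x axis) and the AdipoΔ/Δ library (y axis), one grey point per gene, with selected genes in black and dotted lines at 2-fold; a group under 3 counts was set to 3 counts. Ifng, Xcl1, Itga1 and Maf lie high in both libraries, Satb1 and Rflnb lie low in both, and Il1b, highest in the AdipoΔ/Δ library, was held by 4 members of each library.

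Genes of naive and recirculating T cells that the rule did not use were lower in members. Of 12 such genes 6 were past 2-fold in both libraries, against 0.58% of all genes, among them S1pr1, Igfbp4, Satb1, Foxp1 and Actn1. Satb1, a chromatin organiser of naive cells, stood at 89.1 CPM in control and 32.5 CPM in AdipoΔ/Δ members, 0.262 times (0.142 to 0.445) and 0.120 times (0.0592 to 0.219) the level of naive-gene cells. Tcf7 stood at 0.841 times (0.622 to 1.12) in the control library and 0.367 times (0.260 to 0.508) in the AdipoΔ/Δ library. Igfbp4, a binding protein of insulin-like growth factors, gave 15 UMIs in control members and none in AdipoΔ/Δ members. Among the leading lower genes by rule were Cmah, Pik3ip1, Rflnb, Satb1, Tdrp, AC160336.1, Peli1, Trib2 and Zmynd11. Pik3ip1, an inhibitor of PI3 kinase that is lost on activation, gave 3 and 2 UMIs in members against 105 and 63 in naive-gene cells. The ratios were 0.192 (0.0390 to 0.578) and 0.0757 (0.00897 to 0.285). Natural killer receptors were higher for 5 of 11, against 6.21% of all genes, namely Klrk1, Klra1, Cd160, Fcer1g and Tyrobp. Without the neutrophil-marked cells, 3 of 11 of these receptors were higher. Without those cells, their median log2 ratio was 2.52 in place of 2.48 in the control library. In the AdipoΔ/Δ library it was 0.07 in place of 1.28. Homing receptors were higher for 3 of 6, against the same 6.21%. Ccr2, which guides cells to inflamed tissue, stood 10.4 times (4.90 to 22.7) and 3.64 times (2.40 to 5.56) above naive-gene cells, and Cxcr3 also passed. Tbx21, the gene of T-bet, stood 15.7 times (5.67 to 49.9) and 2.48 times (1.36 to 4.54) above them. Of 12 immediate early and dissociation genes, which respond to tissue digestion as well as to activation, 4 were higher, against 6.21% of all genes. These were Fos, Egr1, Dusp1 and Nr4a1. Jun was lower, and none of the 12 passed among cells of at least 4000 UMIs. The CD8 genes lay between 0.510 and 1.36 times the level of naive-gene cells and did not pass 2-fold in either direction.

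Members were also set beside NK cells and CD4 T cells of the same library. Over NK cells, 227 of 8770 genes were higher (2.59%) and 339 lower (3.87%) in both libraries. Gzma, a granzyme of NK cells, stood at 0.00260 times the NK level in the control and at 0.0660 times in the AdipoΔ/Δ library, and Prf1, which encodes perforin, at 0.0296 and 0.0721 times. Ccl5 stood at 0.414 and 0.540 times the NK level, and Cxcr6 at 6.64 and 10.3 times. Over CD4 T cells, 164 of 4915 genes were higher (3.34%) and 50 lower (1.02%). Ccl5 stood 25.3 and 7.84 times above CD4 T cells, and Klrk1, the activating receptor NKG2D, 39.7 and 28.2 times. The CD4 T cells of each library held fewer than 3 UMIs of Klrk1, so its ratios are uncertain.

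Between the libraries, AdipoΔ/Δ members held more CD8, granzyme, cytokine and cell cycle RNA and less RNA of naive and recirculation genes than control members. Over 3061 genes with at least 20 UMIs in members, 469 were 2-fold or more higher in AdipoΔ/Δ members (15.3%) and 70 were 2-fold or more lower (2.29%). The median log2 ratio over these genes was 0.29, so a typical gene was already higher in AdipoΔ/Δ members, and ratios are to be read against it. Ribosomal protein genes had a median of −0.21. Among other scalings, the mean of the cells' own CPM gave 452 higher and 176 lower genes. No count below rests on more than 1 library per condition.

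CD8 genes were higher in AdipoΔ/Δ members. Cd8a gave 25 UMIs in control and 158 in AdipoΔ/Δ members, a ratio of 2.94 (1.92 to 4.68). Cd8b1 gave 51 and 246 UMIs, a ratio of 2.24 (1.65 to 3.09). Both of the 2 genes passed 2-fold, against 15.3% of all genes. Their median log2 ratio was 1.36. It was 0.93 when cells under 4000 UMIs were left out, with neither gene past 2-fold.

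Genes of naive and recirculating cells were lower in AdipoΔ/Δ members. Of 9 with enough UMIs, 7 were 2-fold or more lower, against 2.29% of all genes, among them Klf2, Tcf7, Il7r, Satb1, Rasgrp2 and Txk, with a median log2 ratio of −1.43 over the 9. Tcf7 (chromosome 11, 52252371 to 52283014) gave 54 UMIs in control and 43 UMIs in AdipoΔ/Δ members, that is 343 and 127 CPM, a ratio of 0.370 (0.242 to 0.563). Klf2 stood at 572 and 225 CPM, a ratio of 0.392 (0.285 to 0.539). Il7r, the receptor for the survival cytokine interleukin 7, stood at 267 and 94.6 CPM, a ratio of 0.354 (0.216 to 0.574). Il7r was not past 2-fold by the mean of the cells' own CPM, at a log2 ratio of −0.33. Within cells of at least 4000 UMIs, 6 of the 9 were 2-fold or more lower, with a median log2 ratio of −1.60. Ccr7, Lef1 and Dapl1 were at 0 in every member by the rule and are not counted here.

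Genes of residency were mixed. Of 6 with enough UMIs, Cxcr6, Runx3 and Nr4a1 were 2-fold or more higher in AdipoΔ/Δ members and Itga1 was lower. Over all genes, 15.3% were higher and 2.29% lower. Runx3, a transcription factor of cytotoxic and resident cells, gave 9 and 42 UMIs, a ratio of 2.17 (1.04 to 5.07). Itga1 gave 14 UMIs in each library, a ratio of 0.465 (0.205 to 1.05). The interval for Itga1 includes 1. Runx3 was not past 2-fold without the cell-cycle-marked members described below. Nr4a1, also an immediate early gene, gave 3 and 22 UMIs, with 12 of the 22 in 1 cell. Cxcr3, a homing receptor of type 1 responses, stood at 108 and 228 CPM, a ratio of 2.11 (1.23 to 3.80), and lost its 2-fold call without ribosomal protein and mitochondrial genes in the total.

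Cytotoxic genes were higher in AdipoΔ/Δ members for 4 of 8, namely Gzma, Gzmb, Gzmk and Prf1, against 15.3% of all genes. Gzma (chromosome 13, 113093825 to 113100981) gave 4 UMIs in 4 control members and 205 UMIs in 13 AdipoΔ/Δ members, a ratio of 23.8 (9.16 to 88.3). A single AdipoΔ/Δ cell held 104 of these UMIs. In naive-gene T cells Gzma was also higher in the AdipoΔ/Δ library, at 22.7 CPM in control and 915 CPM in AdipoΔ/Δ cells. Those AdipoΔ/Δ cells held 738 UMIs of Gzma, and few cells carried them. Of 785 UMIs of 6 NK cell markers, Gzma among them, 308 were in 1 cell. Only 27 of the 100 cells held any of these markers. AdipoΔ/Δ members stood at 0.662 times (0.564 to 0.774) the level of AdipoΔ/Δ naive-gene cells. Gzmb gave 37 UMIs in 6 and 190 UMIs in 16 members, a ratio of 2.39 (1.67 to 3.49). Naive-gene cells of the AdipoΔ/Δ library also held more UMIs of Gzmb than those of the control library, as given above. Gzmk, a granzyme of memory CD8 T cells, gave 1 and 23 UMIs, a ratio of 10.7 (1.74 to 440). Nkg7, a granule protein, stood at 1228 and 1818 CPM, a ratio of 1.48 (1.26 to 1.75), and did not pass 2-fold. Without the richest cell of each gene in each library, these 4 and Lamp1 passed. By the mean of the cells' own CPM, 2 of the 8 passed, namely Gzma and Prf1, with Gzmb at a log2 ratio of 0.64. Among cells of at least 4000 UMIs, 3 passed, namely Gzma, Gzmk and Lamp1, with Gzmb at 0.90.

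**Figure D4:**
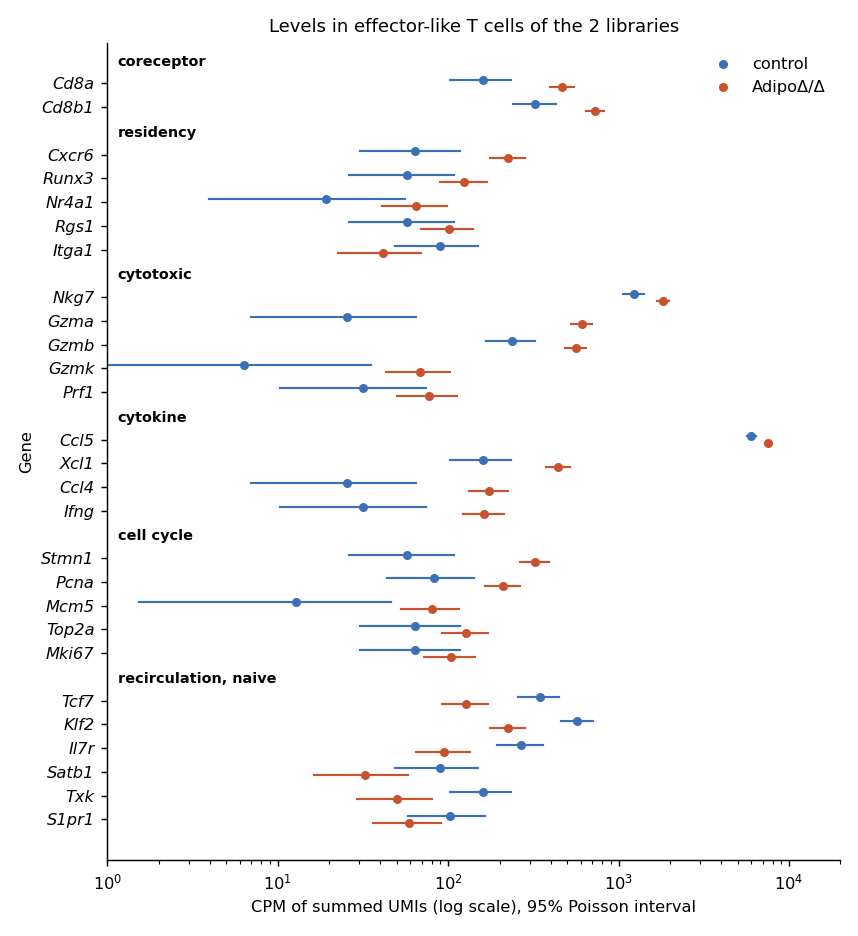
CPM of summed UMIs in effector-like T cells (x axis, log scale) for 27 genes grouped by role (y axis), control in blue and AdipoΔ/Δ in red, with exact 95% Poisson intervals (the control interval of Gzmk runs past the left edge). Coreceptor, cytotoxic and cell cycle genes lie to the right in AdipoΔ/Δ members, such as Gzma at 25.4 and 606 CPM, and recirculation genes lie to the left, such as Klf2 at 572 and 225 CPM.

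Cytokine genes were higher for 3 of 6, namely Ifng, Ccl4 and Xcl1, against 15.3% of all genes. Ifng stood at 31.8 and 163 CPM, a ratio of 5.11 (2.06 to 16.4), and 33 of its 55 UMIs in AdipoΔ/Δ members were in 1 cell. With the mitochondrial limit at 2% the log2 ratio of Ifng was 0.02, in place of 2.35. Xcl1 stood at 159 and 440 CPM, a ratio of 2.77 (1.81 to 4.42), with 47 of 149 UMIs in 1 cell. Ccl4 gave 4 and 59 UMIs, a ratio of 6.86 (2.54 to 26.0). Ccl1, a chemokine of activated T cells, gave 0 UMIs in control members and 131 UMIs in 2 AdipoΔ/Δ members, with 110 UMIs in 1 cell, and the counting interval of its ratio began at 16.3. The cell with most Ifng held 13969 UMIs and was also the only member with Il4 (19 UMIs), Il10 (8 UMIs) and Il21 (9 UMIs). It held 25 UMIs of Trac, 3 of Cxcr6 and none of Cd8a. Ccl5 was the most abundant of these genes, at 6011 and 7500 CPM, a ratio of 1.25 (1.16 to 1.35), close to the median of all genes.

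Cell cycle genes were higher for 3 of 7, namely Stmn1, Mcm5 and Pcna, against 15.3% of all genes. By the mean of the cells' own CPM, the genes that passed were Stmn1, Birc5 and Ccnb2. Stmn1, which frees tubulin in proliferating cells, gave 9 and 109 UMIs, a ratio of 5.63 (2.86 to 12.6). At least 5 UMIs of the cell cycle list were held by 2 of 57 control members, 3.51% (0.428 to 12.1), and 11 of 79 AdipoΔ/Δ members, 13.9% (7.16 to 23.5). A fixed minimum is met more easily in a deep cell, and the 11 cells had a median of 7268 UMIs against 2269 UMIs in the other AdipoΔ/Δ members. The summed list stood at 394 CPM (302 to 506) and 1005 CPM (901 to 1118). Among naive-gene T cells, 1 of 201 and 4 of 100 cells met the minimum, and the summed list stood at 96.4 and 577 CPM. Among CD4 T cells, 2 of 58 and 5 of 42 cells met it, with the list at 223 and 1092 CPM. The list was thus higher in the AdipoΔ/Δ library in these classes as well, and lower in NK cells, at 729 and 326 CPM.

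The cell-cycle-marked cells held a large share of the UMIs of some effector genes, for several of them mostly in 1 or 2 cells. They held 32.4% of the UMIs of AdipoΔ/Δ members and 5.95% of those of control members. In AdipoΔ/Δ members they carried 142 of 205 UMIs of Gzma, 126 of 190 of Gzmb, 43 of 55 of Ifng and 80 of 149 of Xcl1. Of these, 1 cell held 104 UMIs of Gzma and 1 cell held 33 of Ifng. Of Xcl1, 45 and 31 UMIs were in 2 cells without Cd8a. The marked cells held 22 of 76 UMIs of Cxcr6 and 432 of 2537 UMIs of Ccl5. Ccl5 stood at 3942 CPM in them against 9205 CPM in the other AdipoΔ/Δ members, and Cxcr6 at 201 against 236 CPM. Tcf7 was lower in them, with 4 UMIs at 36.5 CPM against 171 CPM in the other AdipoΔ/Δ members, and Il7r gave no UMI. When they were left out, 249 genes in place of 469 were higher and 45 in place of 70 were lower in AdipoΔ/Δ members. Then 2 of 8 cytotoxic genes (Gzma and Gzmk), 1 of 6 cytokine genes (Ccl4), both CD8 genes and Cxcr6 were past 2-fold as higher, and 4 of 9 naive and recirculation genes (among them Klf2, Tcf7 and Txk) as lower. The log2 ratio without them was 0.16 for Gzmb, 0.63 for Ifng and 0.84 for Xcl1, against 1.72 for Cd8a and 2.13 for Cxcr6.

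**Figure D5:**
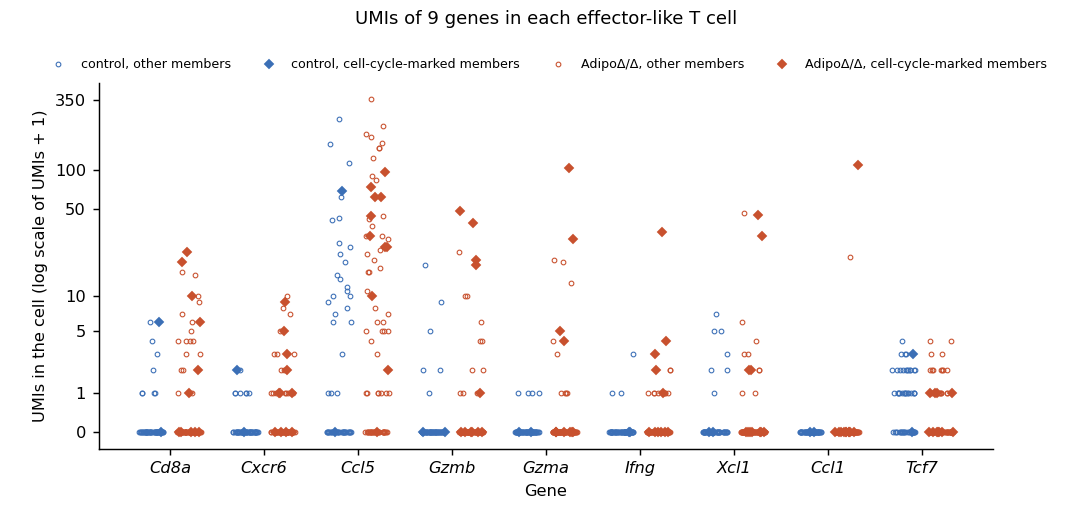
UMIs of 9 genes in each effector-like T cell (y axis, log scale of UMIs plus 1, labelled in UMIs), with genes on the x axis, control in blue and AdipoΔ/Δ in red, and filled diamonds for members with at least 5 cell cycle UMIs. Gzma, Ifng and Ccl1 in AdipoΔ/Δ members come from few cells, with up to 104, 33 and 110 UMIs in 1 cell, while Cd8a, Cxcr6 and Tcf7 are spread over 24, 26 and 26 AdipoΔ/Δ members.

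By size alone, the 10 genes with the largest ratio of AdipoΔ/Δ over control were Gzma, Ccl1, Hist1h2ae, Dut, Hdc, Hmgn2, Ccl4, Lmnb1, Slbp and Hist1h1b. Of these, Dut, Slbp, Hmgn2, Lmnb1 and the 2 histone genes serve DNA replication, chromatin or the nuclear envelope. Dut, which clears dUTP, gave 5 UMIs in 5 control members and 79 UMIs in 24 AdipoΔ/Δ members, a ratio of 7.34 (3.02 to 23.2). Slbp, which binds histone messenger RNA, gave 5 UMIs in 5 and 67 UMIs in 25 members, a ratio of 6.23 (2.54 to 19.8). With the mitochondrial limit at 2%, the 2 histone genes gave no ratio against the floor of 3 counts and the log2 ratio of Hmgn2 was 0.94, in place of 2.86. At a limit of 5% the log2 ratio was 1.04 for Hist1h2ae and 1.14 for Hist1h1b, in place of 3.12 and 2.63. Hdc, which makes histamine, gave 3 and 47 UMIs, and 28 of the 47 were in 1 cell. Without the neutrophil-marked cells, Hdc was at or under the floor of 3 counts, and no ratio is given.

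Among the 10 genes with the largest ratio of control over AdipoΔ/Δ were Klra7, Wdr89, Gm47283, Fam98b, Trp53inp1, Yipf4, Txk, Ube2c and Rgs10. Txk, a kinase of resting T cells, gave 25 and 17 UMIs, a ratio of 0.316 (0.160 to 0.609). Rgs10, a regulator of G protein signalling, gave 16 UMIs in 14 members and 12 UMIs in 12 members, a ratio of 0.349 (0.151 to 0.785). Wdr89 gave 18 UMIs in 14 and 7 UMIs in 7 members, a ratio of 0.181 (0.0638 to 0.454). Klra7, another Ly49 receptor with near-identical copies, gave 24 and 8 UMIs, with 14 and 6 in 1 cell. With the mitochondrial limit at 2%, neither Txk nor Klra7 gave a ratio against the floor of 3 counts. Ube2c, a cell cycle gene, gave 34 and 25 UMIs, but 33 of the 34 were in 1 control cell. Without the richest cell of each library, Ube2c was higher in AdipoΔ/Δ members, at a log2 ratio of 1.22.

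Transcripts of other cell types were present at low levels apart from the neutrophil transcripts. B cell markers gave 42 and 80 UMIs (267 and 237 CPM), with Cd79b at 0 in the control library. NK cell markers gave 223 and 671 CPM, with 5 of 6 markers detected and Klra8 at 0, against 13307 and 12772 CPM in NK cells. Of the AdipoΔ/Δ value, 104 UMIs were the Gzma of 1 cell. Macrophage and monocyte markers gave 452 and 526 CPM, with Cd14 at 0 in the control and Adgre1 at 0 in the AdipoΔ/Δ members. Of 8 adipocyte markers 5 were at 0 in both libraries, namely Adipoq, Car3, Cfd, Cidec and Ucp1. MHC class II genes had a median log2 ratio of −0.67 between the libraries, and of 0.95 without the neutrophil-marked cells. Of the 43 UMIs of Cd74 in control members, 33 were in 1 cell.

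Cells next to the limits of the rule were counted in each library. Members with exactly 2 CD3 UMIs numbered 19 control and 12 AdipoΔ/Δ cells, and 0 and 1 of them held Cxcr6, against 8 of 38 and 25 of 67 members with 3 or more. Cells with 1 CD3 UMI that met all other criteria numbered 12 and 22, and 1 and 4 of them held Cxcr6. Naive-gene cells with exactly 1 UMI of Ccr7, Lef1 or Dapl1 numbered 36 and 17, with Ccl5 in 10 and 11, Cxcr6 in 2 and 7, and Tcf7 in 22 and 7. Cells with exactly 1 UMI of Cd4 that met all other criteria numbered 11 and 12, and none held Cd8a. Cells with more than 2 UMIs of Ncr1 and Klrb1c numbered 18 and 7, and all of them held Ccl5.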

How the data were processed

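CD45+ cells of BAT were sequenced in 1 droplet library for each of 2 conditions. Cell Ranger v4.0.0 with mm10 was used by the authors, and the deposited matrices hold whole-number counts of UMIs, not normalized. The strand setting of that counting is not given in the sources used here, so overlapping genes may share reads. Gene positions came from an annotation of the same build, which matched 32158 of 32285 gene IDs. The members and gene lists were chosen with earlier results of these data known. Counts were summed over members, scaled to CPM and compared as ratios with exact Poisson, Clopper-Pearson or conditional binomial intervals (SciPy 1.17.1). A group under 3 counts was set to 3 counts for calls at 2-fold. Genes needed at least 20 UMIs over the groups compared. Thinned shares are expectations over all draws of 1000 UMIs per cell, a form chosen after single random draws differed widely. The mitochondrial limit was 10%. The limit of 2% in the study's methods left 1306 control and 889 AdipoΔ/Δ cells here, fewer than the study kept. Named genes were those of the lists, the 10 highest, and the 10 with the largest ratio per direction, by the smaller ratio of the 2 libraries where both were used. The ratio and interval functions were tested on simulated data. The cell-cycle-marked and neutrophil-marked members, and the genes named beside a single cell, were picked after their values were seen. Scrublet in Scanpy 1.11.5 scored doublets. Results for some genes of the lists are not reported here.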

Additional observations from a re-analysis of the deposited data

Results flagged for a closer look

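Between effector-like and naive-gene T cells, 27 of 7247 genes passed 2-fold in opposite directions in the 2 libraries, and Yipf4 is the only one of them named above. Yipf4 stood 2.13 times above naive-gene cells in the control library (12 UMIs in members) and at 0.489 times their level in the AdipoΔ/Δ library (8 UMIs in members). The difference between the libraries was not tested, since each condition has 1 library.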

How the results depend on the processing

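No leave-one-out and no paired analysis was possible because each condition has 1 library. With the mitochondrial limit at 2%, the share of members was 5.29% in the AdipoΔ/Δ library and the ratio of shares 2.38, Cd8a was detected in 6.90% of control and 19.1% of AdipoΔ/Δ members, 44 genes were lower in AdipoΔ/Δ members, and 179 genes were higher and 8 lower than in naive-gene cells. With at least 2000 UMIs per cell, the control share was 1.63%, the ratio 2.27, Cd8a detection in control members 29.6% and Cxcr6 detection in AdipoΔ/Δ members 48.1%. A CD3 sum of at least 3 gave a control share of 1.67%. The shares were 15.7% and 29.3% of CD3-positive cells, and 4.10% and 7.71% of cells without Csf1r. Thinning gave Cxcr6 in 5.18% and 13.5%. Without ribosomal protein and mitochondrial genes in the total, 222 genes were higher and 95 lower than in naive-gene cells. Between the libraries, the mean of the cells' own CPM gave 176 lower genes, a minimum of 50 UMIs gave 113 higher and 14 lower (and 187 higher than in naive-gene cells), and at least 1 UMI in each library gave 707 lower. Alternatives chosen after seeing the data were these. With at least 4000 UMIs per cell, the shares were 1.11% and 2.41%, Cd8a was detected in 58.3% and 62.5%, Cxcr6 in 41.7% and 70.8%, and 26 genes were lower than in naive-gene cells. Leaving out the richest member of each gene gave 40 lower genes and turned Ube2c to a log2 ratio of 1.22. Leaving out the cell-cycle-marked members gave 249 higher and 45 lower genes.

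Of the other values for shares, detection and gene counts, 144 stayed within their counting interval or within 1.5 times of the count. Of the values for single genes, 572 stayed within and 73 moved beyond it. The median log2 ratio over all genes between the libraries was 0.17 without ribosomal protein and mitochondrial genes, 0.20 without Gm42418, Lars2 and AY036118, 0.17 by the mean of the cells' own CPM and 0.40 with at least 4000 UMIs per cell. No UMI of the 3 genes named by the rule for detection was held by 75.4% of control members and 53.2% of AdipoΔ/Δ members, and in such cells a gene that is off and one missed at this depth cannot be told apart.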

Other observations

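Interferon-stimulated genes were higher in members than in naive-gene T cells for 4 of 11, namely Isg15, Irf7, Ly6a and Ifi27l2a, against 6.21% of all genes. The number was 3 without the neutrophil-marked cells and 3 without ribosomal protein and mitochondrial genes in the total. It was 2 without the richest member of each gene and 6 among cells of at least 4000 UMIs. Ly6a, the stem cell antigen that activated T cells carry, stood at 165 CPM in control and 618 CPM in AdipoΔ/Δ members, a ratio of 3.74 (2.48 to 5.85), and was detected in 12 of 57 and 39 of 79 members. B cells held it in 36.2% and 43.0%, so its detection is not particular to T cells. Isg15, a ubiquitin-like protein, gave 10 and 58 UMIs, a ratio of 2.70 (1.37 to 5.92), with 30 UMIs in 1 cell. In AdipoΔ/Δ members the interleukin 18 receptor genes stood at 0.494 times (0.235 to 1.04) the control level for Il18r1 and at 0.403 times (0.176 to 0.907) for Il18rap. Neither was past 2-fold when the cell-cycle-marked members were left out, and Il18r1 was not by the mean of the cells' own CPM.

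Variable genes of the T cell receptor were too sparse to describe a repertoire. Trbv genes were detected in 4 of 57 control and 6 of 79 AdipoΔ/Δ members, and no Trbv gene was found in more than 2 members. Trav genes were detected in 6 and 4 members, each gene in 1 member.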
